A study of Homo sapiens with 3 samples.

Results

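The genes described here encode the proteins of the cytosolic ribosome, followed through a knockdown series of miRNA-processing enzymes in a human cell line. Members were chosen by symbol alone: RPL or RPS with a number and an optional A or X, RPLP0, RPLP1, RPLP2 and RPSA. The rule found 76 of the 12040 rows of the deposited table, 46 of the large subunit (RPL and RPLP) and 30 of the small subunit (RPS and RPSA). The rule uses no measured value, though it was chosen with earlier results of these data known. It leaves out genes of the same ribosome that carry other names, such as FAU.

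HEK293 cells, an established line from human embryonic kidney, were transfected to deplete DICER1 or DROSHA by RNA interference, or were mock transfected. Each of the 3 groups is 1 library of poly(A) RNA, with no replicate. All 3 groups share the same derivative line, a T-REx Flp-In line that carries a FLAG-tagged DICER1 transgene, and all titles carry the mark 2.5d, which the labels leave unexplained. Of 8 genes listed as HEK293 markers, 6 are in the table (VIM, CDH2, KRT8, KRT18, NEFL and INA), and of 8 markers of blood, liver, endothelium, fibroblasts and heart muscle, 0 are.

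The table gives 3 levels per gene in columns that carry no name. One level is the denominator of both fold changes that the table holds, and the others are the numerators. They are called the denominator level, the first level and the second level, in the order of the table. No label ties a column to a library, so none was assigned to a treatment. A fold change is log2 of (level + 1) over (denominator level + 1), and the difference is the first minus the second fold change, which does not contain the denominator. The row of DICER1 had a denominator level of 15.7, a first level of 5.72 and a second level of 24.0, and that of DROSHA had levels of 23.3, 21.4 and 6.72. With 1 library behind each level there is no replicate error and no test, so every value describes these libraries. The unit of the levels, the depth of the libraries and any correction for gene length are not given in the sources used here, so levels of single genes are compared within a gene. Sums over genes, and rows picked by their level, take all rows to be on 1 scale.

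Ribosomal proteins surround the ribosomal RNA of the small subunit, which reads the mRNA, and of the large subunit, which joins amino acids. Cells make these proteins in matched amounts, and unassembled copies are degraded. Their mRNAs are short, abundant and stable, and most start with a 5' terminal oligopyrimidine tract (TOP), a C followed by a run of pyrimidines at the very start of the transcript. The TOP lets the kinase mTORC1 and the RNA-binding protein LARP1 set the translation of the whole group together. Many of the genes also carry small nucleolar RNAs in their introns, and the family has left very many processed pseudogenes in the human genome.

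The start sites of 8 members are shown because the TOP is the sequence feature that the family shares, and because these members lead, trail or anchor the results that follow. Each window has 30 bases in sense orientation, 10 before the RefSeq start and 20 from it, on GRCh38.p14. Capitals mark at least 5 pyrimidines in a row, counted from a C within 5 bases of that start. Pyrimidines directly before that C, as in RPL13A and RPL21, are in lower case. RPS19 has another RefSeq start, not shown, where the run counted this way has 5 pyrimidines and ends just before the start.
RPL13A, chr19:49487598-49487627, plus strand: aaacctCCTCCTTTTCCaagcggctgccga
RPS27, chr1:153990752-153990781, plus strand: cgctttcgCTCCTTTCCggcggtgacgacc
RPLP0, chr12:120201092-120201121, minus strand: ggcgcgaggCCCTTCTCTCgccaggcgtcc
RPS19, chr19:41860245-41860274, plus strand: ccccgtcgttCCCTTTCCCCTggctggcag
RPS25, chr11:119018324-119018353, minus strand: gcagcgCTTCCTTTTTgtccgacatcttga
RPS6, chr9:19380217-19380246, minus strand: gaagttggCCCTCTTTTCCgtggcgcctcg
RPL21, chr13:27251548-27251577, plus strand: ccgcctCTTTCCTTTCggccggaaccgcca
RPS15, chr19:1438386-1438415, plus strand: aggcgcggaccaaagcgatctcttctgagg
In 7 of the 8 windows such a run was found. The window of RPS15 holds none within 5 bases of that start, but it has a pyrimidine run further downstream, outside this limit. RPL13A, with the highest fold change of all members in both comparisons, and RPL21, with the lowest in the first, both have a run within the limit.

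RefSeq windows of 250 bases before to 50 after the start were at hand for 62 of the 76 members, 77 windows in all. A C stood at the start in 66.2% of them, against 14.7% of all 35116 windows in the reference and 11.9% of the 12802 windows of genes in the table. A C at the start that was the first of at least 5 pyrimidines, whatever base came before it, was found in 59.7% of the members' windows, 4.07% of all windows and 5.35% of those of genes in the table. Within 5 bases of the start it was found in 74.0%, against 21.1% and 22.2%. The first median was 0.25 for the 46 genes with the run at the start and 0.25 for the 16 without. The second medians were 0.11 and 0.13. The motif CCGGAAG, the core of sites bound by ETS factors such as GABPA, was present on either strand in 33.8% of the members' windows, against 10.3% of all windows and 16.9% of those of genes in the table. The 22 members with it had medians of 0.25 and 0.13, and the 40 with a window but without it 0.25 and 0.11. AAGATGGCG, a YY1-like sequence, was found in 6.49% of members' windows, 1.75% of all and 3.66% of those of genes in the table. TATAAA was in 6.49%, 11.5% and 5.82%, so the members lay below all windows and slightly above those of genes in the table. The E-box CACGTG was in 5.19%, 7.26% and 9.51%, both strands searched.

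Nearly all ribosomal protein genes had a higher first level than denominator level, by a small and similar amount. In the first comparison 75 of 76 lay above 0, where 56.5% of all rows did. Their median was 0.25, and the middle 50% of members lay between 0.22 and 0.31, against a median of 0.03 over all rows. A difference of at least 1.2-fold upward was reached by 34 members, or 44.7%, and by 11% of all rows. Downward, 1 member, RPL21, passed 1.2-fold, as did 8.51% of all rows. A 2-fold difference in either direction was reached by 0 members and by 0.341% of all rows. In bulk RNA, more cells with a transcript and more RNA per cell cannot be told apart.

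The second level was also above the denominator level for most members, but by less. Of the 76, 61 lay above 0, where 51.1% of all rows did, and the median was 0.12 against 0.0063 over all rows. Only RPL13A, RPS25 and RPL34 were at least 1.2-fold higher, a share of 3.95% against 13.8% of all rows. RPS15 alone was at least 1.2-fold lower, while 17.1% of all rows were. No member reached 2-fold in either direction, where 0.831% of all rows did. The members were thus shifted upward and at the same time held in a narrower range than the table as a whole, as the cumulative curves show. Most rows of the table have far lower levels. Taken on 1 scale, the median denominator level was 1452 for the members and 9.55 over all rows. Other rows of high level are described further below.

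**Figure D1:**
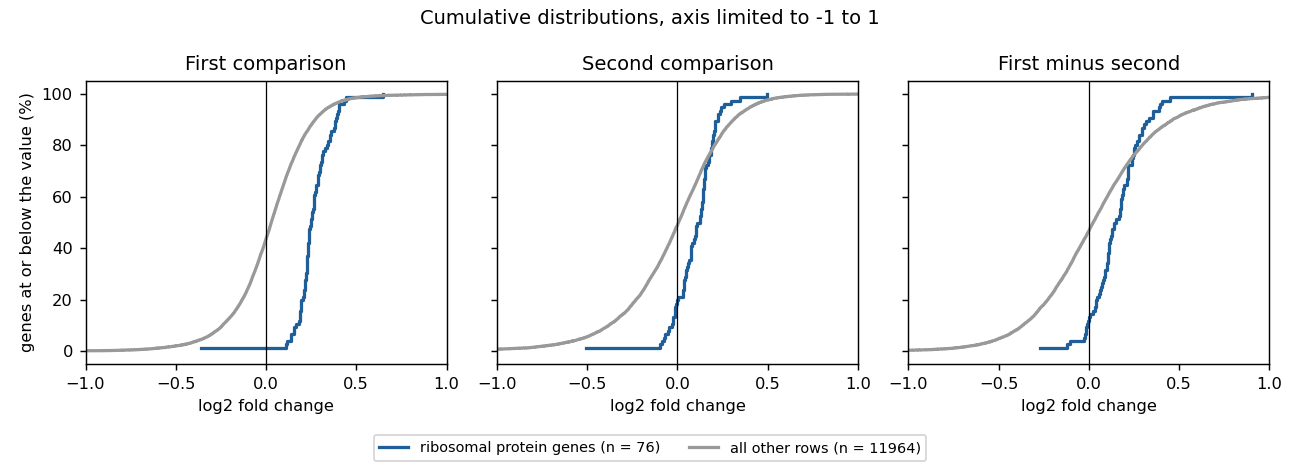
Cumulative share of genes (vertical axis, percent) at or below each log2 fold change (horizontal axis, limited to -1 to 1) for the 76 ribosomal protein genes (blue) and the 11964 other rows (grey), in the first comparison, the second comparison and the first minus the second. The blue curve is steep and lies to the right of the grey one over most of its length, with medians of 0.25, 0.12 and 0.15 from left to right.

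The first level was higher than the second for 66 of 76 members, a comparison that does not use the denominator. The share above 0 over all rows was 53.4%. The median difference was 0.15, against 0.02 over all rows. A difference of at least 1.2-fold upward was reached by 15 members (19.7%) and by 22.6% of all rows, so at that size the members did not exceed the table. At least 1.2-fold downward stood 1 member, RPL21, and 17.2% of all rows. At 2-fold there were 0 members and 1.66% of all rows. By the order of their levels, 52 members (68.4%) had the denominator lowest, the second level between and the first highest, an order held by 12.9% of all rows. The next most frequent order, with the second level lowest and the first highest, held for 14 members and 26.3% of all rows.

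Scaling changed the size of the first shift. The sum of all levels in the table was 437207 for the denominator, 471501 for the first level and 443273 for the second. Ribosomal protein genes made up 28.72%, 32.03% and 29.98% of these sums, and 74.3% of the gain in the sum from the denominator to the first level was their own. In the first comparison, dividing by this sum therefore removes part of the members' own rise and lowers all other rows as well. The log2 ratio of the first sum to the denominator sum was 0.109 over all rows and 0.040 over the rows outside the members. Scaling by the sum of those other rows was not run. When each level was divided by its sum, the median of the members was 0.14 in the first comparison, 74 of 76 lay above 0, and 11 were at least 1.2-fold higher. All rows then had a median of -0.06, where it was 0.03 as deposited. Of all rows, 36.1% lay above 0, 4.73% were at least 1.2-fold higher and 15.6% lower. For the difference, the same division gave a median of 0.056 over the members, 54 of 76 above 0 and 7 at least 1.2-fold higher. It left 43.4% of all rows above 0, 16.7% at least 1.2-fold higher and 24.0% lower. Division by the upper quartile left 19 members at least 1.2-fold higher in the first comparison and 75 above 0. Of all rows, 47.6% were then above 0, 7.79% at least 1.2-fold higher and 11.2% lower.

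**Figure D2:**
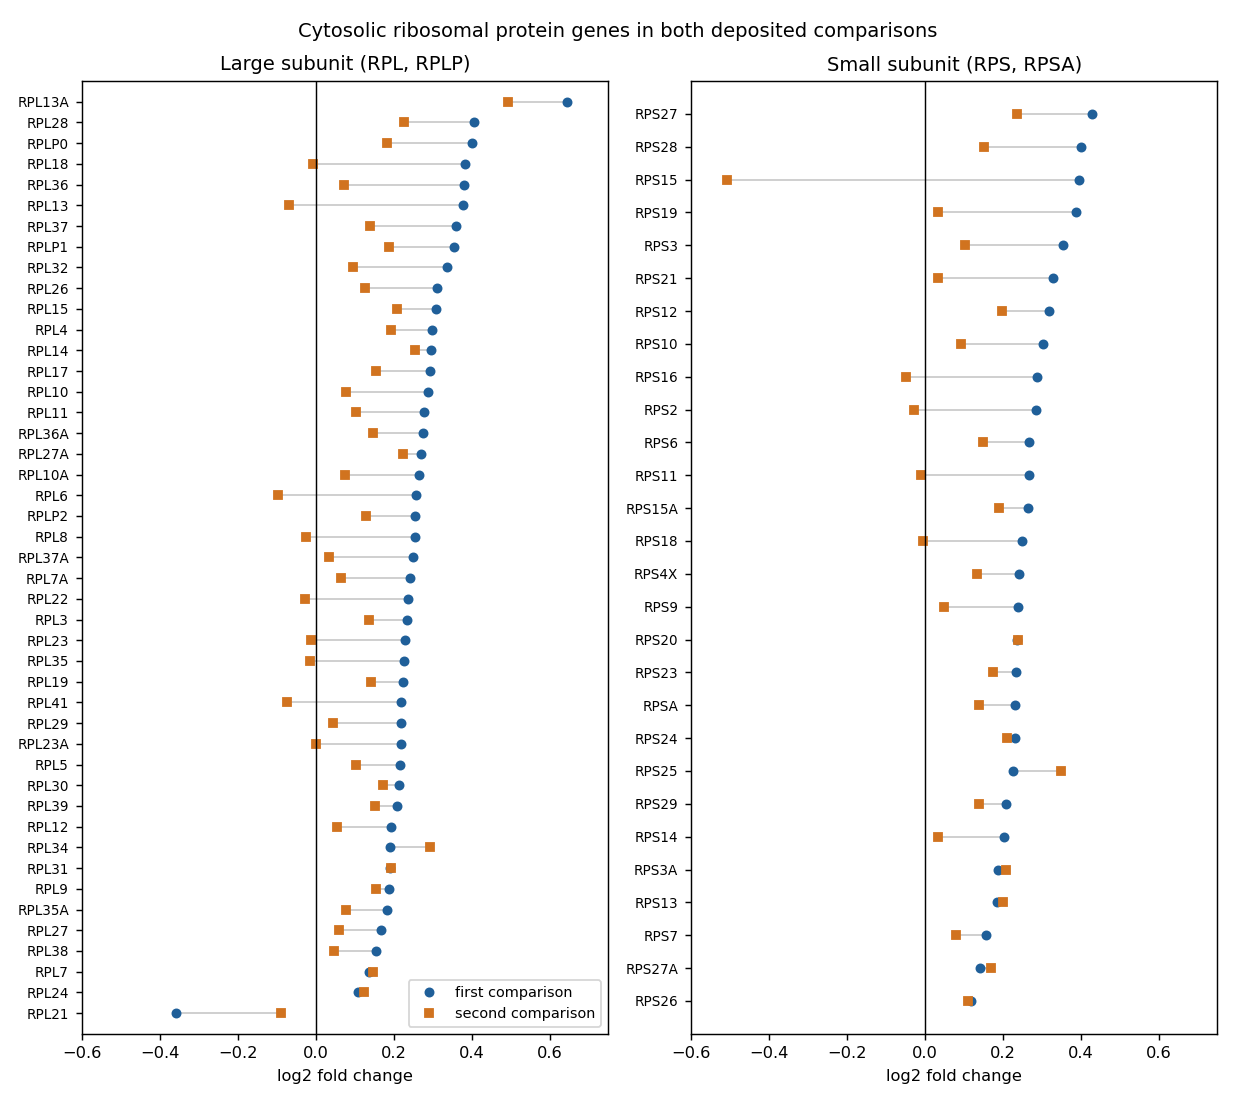
Log2 fold change (horizontal axis) of each ribosomal protein gene in the first comparison (blue circles) and the second (orange squares), for the genes of the large subunit (left) and the small subunit (right) that are reported by name, 73 in all, ordered by the first value. Circles lie between 0.11 and 0.65 except RPL21 at -0.36, and the squares reach furthest down for RPS15 at -0.51.

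Both subunits showed the same pattern. The small subunit genes had a median of 0.24 in the first comparison, with 30 of 30 above 0, and 0.13 in the second, with 24 of 30. The large subunit genes had 0.25, with 45 of 46 above 0, and 0.10, with 37 of 46. In the first comparison small subunit genes ran from 0.12 for RPS26 to 0.43 for RPS27, and large subunit genes from -0.36 for RPL21 to 0.65 for RPL13A. With 1 library for each level, no difference between the subunits was tested.

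The P-stalk is the flexible arm of the large subunit that recruits elongation factors, built from RPLP0 as its base and RPLP1 and RPLP2. RPLP0 had a denominator level of 1337, a first level of 1766.5 and a second level of 1519. RPLP1 had levels of 2860, 3660.1 and 3257, and RPLP2 of 1041, 1243 and 1139. All 3 genes were highest in the first level and lowest in the denominator. Their fold changes were 0.40, 0.36 and 0.26 in the first comparison and 0.18, 0.19 and 0.13 in the second.

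RPL5 and RPL11 bind the 5S ribosomal RNA and, when free of the ribosome, inhibit MDM2, the ligase that destroys p53. RPL5 had levels of 1452 in the denominator, 1686 in the first and 1562 in the second, and RPL11 had 1858, 2252 and 1998. The pair stood at 0.22 and 0.28 in the first comparison and both at 0.10 in the second. They lay close to the median of the family in each.

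The nascent chain leaves through a tunnel in the large subunit lined or ringed by RPL4, RPL17, RPL19, RPL23A, RPL26, RPL31, RPL35 and RPL39. All 8 were above 0 in the first comparison, from 0.19 for RPL31 to 0.31 for RPL26. In the second comparison 7 of 8 were, from -0.02 for RPL35 to 0.19 for RPL4. RPL39, among the smallest ribosomal proteins and part of the narrow tunnel wall, had levels of 3813, 4408 and 4235. RPL35 was at 1486 in the denominator, 1738 in the first level and 1470 in the second, so its second level was close to the denominator. RPL23A, a docking site for chaperones of the new chain, likewise had 1302, 1514 and 1302.

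On the small subunit, RPS2 and RPS3 form the entry of the mRNA channel, where they help to unwind the message. RPS2 had levels of 3827, 4664 and 3752.5, and RPS3 of 1537, 1963 and 1650 (denominator, first, second). Both were at least 1.2-fold higher in the first comparison, at 0.29 and 0.35, and stood at -0.03 and 0.10 in the second. At the exit of the channel lie RPSA, RPS14, RPS26 and RPS28, among others. In the first comparison these 4 were above 0, from 0.12 for RPS26 to 0.40 for RPS28. RPS26 was nearly level across the numerators, with 516, 559.7 and 557.

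RPS6 is the ribosomal protein phosphorylated by the S6 kinases downstream of mTORC1. Its levels were 1677 in the denominator, 2018 in the first and 1857 in the second, and its fold changes 0.27 and 0.15. RPL10, which completes the large subunit near its catalytic centre, stood at 0.29 and 0.08, and RPL38, needed for the translation of certain homeobox mRNAs, at 0.15 and 0.05. RPS27A is made as a fusion to ubiquitin, and with levels of 773, 853 and 870.4 it stood at 0.14 and 0.17. FAU, outside the symbol rule, encodes a fusion to a ubiquitin-like protein and was at 0.16 and -0.06.

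Diamond-Blackfan anaemia, a failure of red cell production, is most often caused by loss of 1 copy of a ribosomal protein gene. Of the genes listed for it, 8 were members in the table (RPS19, RPS26, RPL5, RPL11, RPL35A, RPS24, RPS10 and RPS7). All 8 were above 0 in both comparisons, with medians of 0.22 and 0.10. RPS19, the gene most often affected, had levels of 1991, 2605 and 2039 and stood at 0.39 and 0.03. RPL35A was at 0.18 and 0.08, RPS24 at 0.23 and 0.21, RPS10 at 0.30 and 0.09, and RPS7 at 0.16 and 0.08.

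The upper end of the first comparison was shared by both subunits. Besides RPL13A, it held RPS27 at 0.43, with levels of 2693, 3628 and 3171. RPL28 at 0.41, RPLP0 and RPS28 at 0.40, RPS15 at 0.40 and RPS19 at 0.39 lay there too. RPS19 had a second value of 0.03, close to its denominator, whereas RPS27, a zinc finger protein of the small subunit, had one of 0.24. The lower end held RPL21, RPL24 at 0.11, RPS26 at 0.12, RPL7 at 0.14, RPS27A at 0.14, RPL38 at 0.15, RPS7 at 0.16 and RPL27 at 0.17. RPL24, which reaches across to the small subunit, had levels of 1253, 1351 and 1365, and RPL7 had 1233, 1355 and 1366, so in both the numerators were nearly equal.

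In the second comparison RPS25 stood next to RPL13A. RPS25, a small subunit protein that several viral internal ribosome entry sites depend on, had levels of 1249, 1459 and 1590.2, with fold changes of 0.22 and 0.35. RPL34 had levels of 384, 438 and 471 and stood at 0.19 and 0.29. They were among the 10 members whose second level exceeded the first, and their differences of -0.12 and -0.10 were the lowest after that of RPL21. RPL14 at 0.26, RPS20 at 0.24, RPS27 at 0.24, RPL28 at 0.23 and RPL27A at 0.23 completed the 8 highest.

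RPS15 stood apart in the second comparison. This protein sits in the head of the small subunit close to the decoding site and is needed for export of the small subunit from the nucleus. Its levels were 2057 in the denominator, 2707 in the first and 1447 in the second. The first level was 1.32-fold and the second 0.703-fold the denominator, log2 fold changes of 0.40 and -0.51. Its difference of 0.90 was the highest of all members, with RPL13 next at 0.45. Over all rows, 394 (3.27%) were at least 1.2-fold from the denominator in opposite directions in the comparisons, and RPS15 was the only member among them. Under every scaling and added value tried, its second fold change stayed between -0.53 and -0.51.

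The other members at the lower end of the second comparison were within 0.10 of 0. RPL6, a large subunit protein, had levels of 1953, 2337 and 1828 and stood at 0.26 and -0.10. RPL21 was at -0.09, RPL41, the smallest protein of the ribosome, at -0.07, and RPL13 at -0.07. RPS16 was at -0.05 and RPS2 at -0.03. In all, 14 members were above 0 in the first comparison and below 0 in the second, 1 (RPL21) was below 0 in both, and 0 showed the reverse pattern, which 20.9% of all rows showed.

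The members with the most extreme first values also have processed pseudogene rows in the same table, a point looked for after the values were seen. RPL13A, a large subunit protein that also silences translation of inflammatory mRNAs in myeloid cells, had levels of 510.3, 799 and 719 and fold changes of 0.65 and 0.49. The row of RPL13AP5 had levels of 2049, 2767 and 2145 and fold changes of 0.43 and 0.07. RPL21, a large subunit protein, had levels of 73.1, 56.8 and 68.7 and fold changes of -0.36 and -0.09. The row of RPL21P28 had levels of 1146, 1329 and 1346 and fold changes of 0.21 and 0.23. The gene and its copy thus pointed in opposite directions for RPL21.

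The sources used here do not say how reads of near-identical copies were shared between rows, so single values of these genes are uncertain. When the level of the copy was added to that of the gene, RPL13A had summed levels of 2559, 3566 and 2864 and stood at 0.48 and 0.16. RPL21 had summed levels of 1219, 1386 and 1414 and stood at 0.18 and 0.21. All 76 members then lay above 0 in the first comparison, where 56.6% of all rows did. RPL13A no longer passed 1.2-fold in the second, which left RPS25 and RPL34, while 13.8% of all rows passed it. Sums of this kind take the rows to be on 1 scale. GENCODE release 29 lists 1124 pseudogenes named after the members, processed and unprocessed types counted together. The median was 10 each, with 91 for RPL23A, 74 for RPSA, 66 for RPL21, 61 for RPL7 and 10 for RPL13A.

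**Figure D3:**
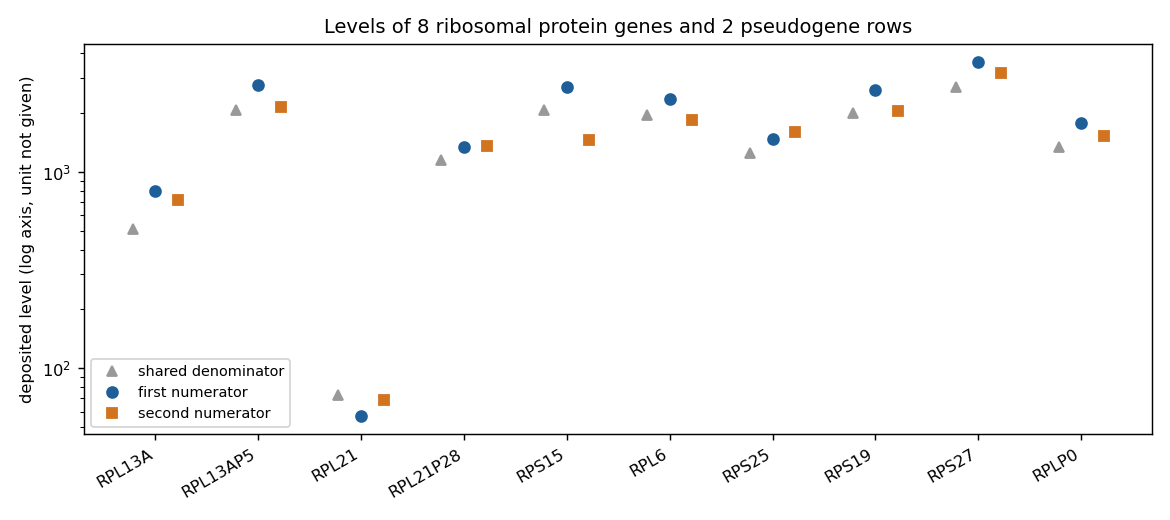
Deposited levels (vertical axis, logarithmic, unit not given) of 8 ribosomal protein genes and of the pseudogene rows RPL13AP5 and RPL21P28, with the shared denominator as grey triangles, the first numerator as blue circles and the second numerator as orange squares. RPL21 lies at 56.8 to 73.1 and its pseudogene row RPL21P28 at 1146 to 1346, and RPS15 is the gene whose second level (1447) drops clearly below its denominator (2057).

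Small nucleolar RNA genes lie inside 28 of the 76 members by the annotation, 60 such genes in all, with 5 in RPL4 and 4 in RPL13A among them. These RNAs guide the chemical modification of ribosomal RNA and are cut out of the introns. The 28 hosts had medians of 0.25 and 0.13, and the 48 other members 0.25 and 0.11. Hosts and other members thus had nearly the same medians.

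GC content moved with the fold changes inside the family as it did in the whole table. Over the 76 members, which share library and annotation, Spearman's rho between GC content of the transcript and fold change was 0.36 in the first comparison, -0.38 in the second and 0.50 for the difference. Over 10585 rows with a sequence it was 0.39, -0.28 and 0.47. The members' median GC content of 49.3% was close to the 48.8% of all rows with a sequence, but their median transcript length of 1011 bases was much shorter than 3253. RPS15, with 61.6% GC, is among the members with the highest content. After adjustment of all rows for length and GC content, the members' medians were 0.28, 0.10 and 0.16. The 1008 shortest transcripts of other rows, up to 1393 bases, had medians of 0.03 and -0.02. The part of GC content in single members' values was not tested.

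**Figure D4:**
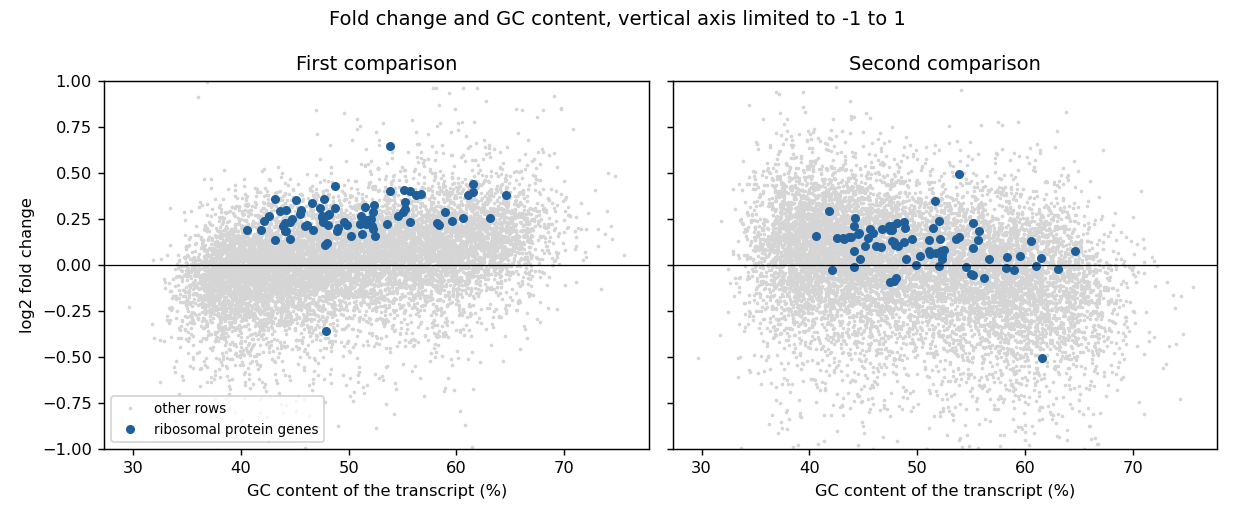
Log2 fold change (vertical axis, limited to -1 to 1) against GC content of the transcript in percent (horizontal axis) for the 76 ribosomal protein genes (blue) over the other rows with a sequence (grey), in the first comparison (left) and the second (right). The blue points follow the upward slope of the grey ones on the left (rho 0.36) and the downward slope on the right (rho -0.38), with RPL21 lowest on the left and RPS15 lowest on the right.

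Genes that work with the ribosome were compared from lists written from textbook knowledge. Of 10 listed paralogs and fusion genes outside the symbol rule, 8 were in the table, with 3 above 0 in the first comparison and a median of -0.03. RPL39L, a testis-enriched paralog of RPL39, was lowest at -0.44, and RPL22L1 and RPL26L1 were at -0.28 and -0.26, while their parent genes RPL39, RPL22 and RPL26 stood at 0.21, 0.24 and 0.31. RPS27L, a p53-responsive paralog, had a first value of 0.0053 and a second of 0.29, against 0.43 and 0.24 for RPS27. In the second comparison 5 of the 8 were above 0 with a median of 0.12, equal to that of the members. Reads from these paralogs and their parents may have been shared between rows.

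The 76 mitochondrial ribosomal protein genes, which build a separate ribosome for the mitochondrial genome, had medians of 0.0088 and 0.02, with 38 and 43 above 0. They ranged from -1.05 (MRPS33) to 0.26 (MRPS6) in the first comparison and from -1.64 (MRPL45) to 0.47 (MRPL50) in the second. Translation factors and other TOP mRNAs had medians of 0.08 and 0.05 over 32 genes, with 26 and 21 above 0. At least 1.2-fold higher were 7 (21.9%) and 2 (6.25%), against 11% and 13.8% of all rows. VIM (0.48) and EIF3J (-0.29) marked the ends of this list in the first comparison, and EIF4B (0.37) and IPO7 (-1.10) in the second. Division of the levels by their sum, which holds the members' own rise, turned the first medians of both lists negative (-0.10 and -0.02).

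The 5 elongation factor genes within that list differed among themselves. EEF1A1, which brings aminoacyl-tRNA to the ribosome, had levels of 2436, 3040.4 and 2643 and stood at 0.32 and 0.12. EEF2, which moves the ribosome along, was at 0.37 and 0.03, and EEF1G at 0.35 and 0.19. EEF1D was at 0.27 and 0.05, and EEF1B2 at 0.05 and -0.20, below the members' medians. NPM1 and TPT1, also listed as TOP mRNAs, were at -0.04 and 0.03 in the first comparison. These genes were singled out after their values were seen.

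Ribosome biogenesis factors, which process ribosomal RNA and assemble subunits, had medians of 0.04 and 0.06 over 61 genes, with 45 and 42 above 0. IMP4 was highest at 0.31 and NOP10 lowest at -0.17 in the first comparison, UTP14A highest at 0.53 and RRS1 lowest at -0.84 in the second. RNA polymerase I and 5S transcription genes had medians of 0.12 and 0.16 over 16 genes, with 14 and 11 above 0. TAF1A (0.34) and TAF1B (-0.12) stood at the ends in the first comparison, and POLR1D (0.55) and UBTF (-0.10) in the second. The 12 chaperones and importers of ribosomal proteins had medians of 0.02 and -0.03, with GRWD1 at 0.28 and TNPO1 at -0.29 in the first comparison, and TNPO1 at 0.15 and AAMP at -0.33 in the second.

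Regulators of mTORC1 and of TOP mRNAs had medians of 0.12 and 0.05 over 24 genes, with 18 and 14 above 0. DDIT4, an inhibitor of mTORC1, was highest in the first comparison at 0.96 and stood at -0.14 in the second, and EIF4E was lowest at -0.28. In the second comparison DEPTOR was at 0.47 and LARP6 at -0.31. LARP1, which binds the TOP, was at 0.05 and -0.06, and MYC, an activator of ribosomal protein genes, at 0.27 and -0.01. The 14 genes of ribosome quality control and the MDM2 checkpoint had medians of 0.01 and -0.01. CDKN1A, a p53 target, was its highest gene in the first comparison at 0.48 and its lowest in the second at -1.01, with ANKZF1 lowest at -0.17 and ASCC3 highest at 0.28. When levels were divided by their sum, the members' own rise included, the first medians of the biogenesis, chaperone and quality control lists were -0.07, -0.09 and -0.09. Those of the ribosomal proteins (0.14), the polymerase I list (0.02) and the mTORC1 list (0.02) stayed positive.

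**Figure D5:**
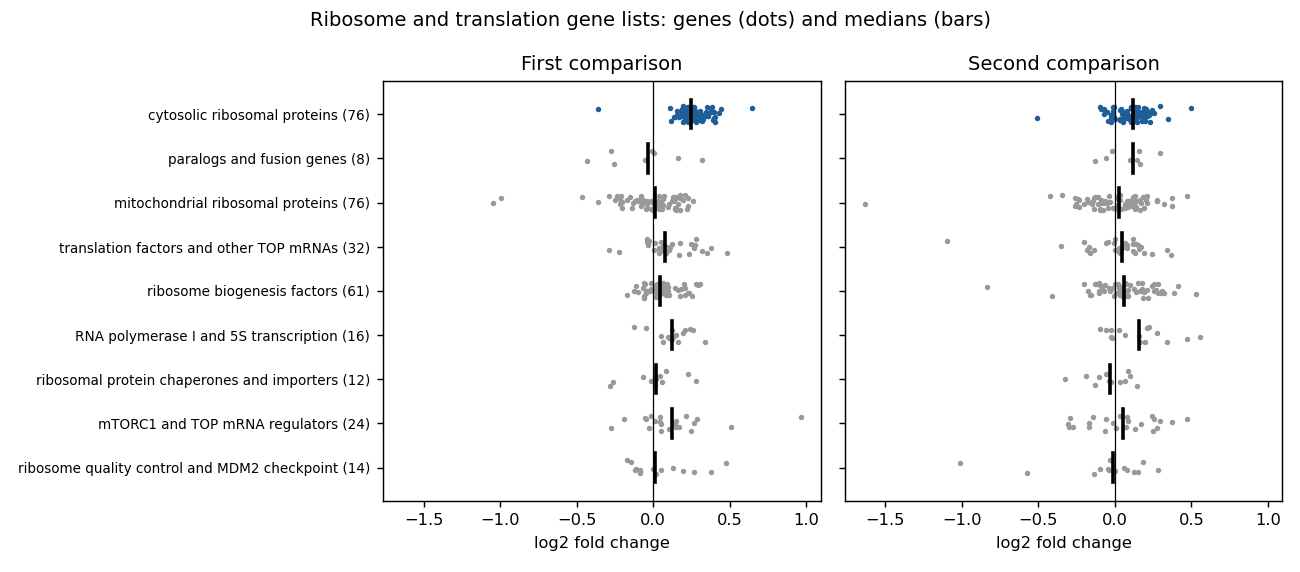
Log2 fold change (horizontal axis) of each gene (dots) in the ribosomal protein genes (blue) and 8 other gene lists (grey, number of genes in parentheses), with the median of each as a black bar, in the first comparison (left) and the second (right). The ribosomal protein genes form a narrow band with medians of 0.25 and 0.12, and the 76 mitochondrial ribosomal protein genes spread around 0 in both.

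The 51 rows outside the members with a mean level of at least 500 had a first median of 0.03 and a second of -0.0021. Above 0 were 29 (56.9%) and 25 (49.0%), against 56.5% and 51.1% of all rows. The median difference of the 51 rows was 0.12, close to the members' 0.15, with 36 (70.6%) above 0 against 53.4% of all rows. The 51 rows ranged from -0.73 (PTMA) to 0.44 (SNHG5) in the first comparison. A comparison by level takes the levels as given. No correction for length was added here, and the sources used do not say whether the levels already hold one.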

How the data were processed

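Poly(A) RNA from 3 HEK293 libraries was sequenced, and 1 deposited table of 12040 gene rows was used. Build hg19, SAMtools, Cuffdiff 2.1.1, Cufflinks, TopHat2 2.06 and CASAVA 1.8.2 are listed in the submitters' processing notes, without their roles; filters and strand handling are not stated there. The table has no header. Its 5 value columns are 3 levels of a unit not given and 2 log2 fold changes made by the authors. The deposited log2 values equalled log2 of (level + 1) over (denominator level + 1) within 1e-11, and fold changes were computed that way here. The denominator level exceeded 1 in every row. No column names a sample, so none was assigned. There was no test, since each group has 1 library. A fold of 1.2 (log2 of 0.263) and of 2 was used for counts.

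Members, lists and folds were chosen with earlier results of these data known. Genes were named as the 8 highest and 8 lowest members of each comparison, the 5 highest and lowest of the difference, the role groups, and the genes at the ends of the lists (at most 2 each); others were named after their values were seen. A few genes that meet this rule are counted in every summary but not reported here by name. Start sites came from RefSeq (GRCh38.p14). Transcript length, GC content, pseudogenes and small nucleolar RNA genes came from GENCODE release 29 (GRCh38, a later build than hg19). Length, GC content and 3' UTRs were taken from 1 coding transcript per gene, the longest of those ranked best as principal isoform. That transcript need not be the one expressed in these cells. The length and GC adjustment was least squares with squared terms, tested on simulated data. In that simulation members and other rows had the same spread of length and GC content. Recovery of a shift in members shorter than the other rows, as here, was not tested. Python 3.11.15, pandas 2.3.3 and NumPy 2.4.6 were used. Alternatives covered the added value, scaling, a floor on levels, the membership and the fold.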

Additional observations from a re-analysis of the deposited data

Results flagged for a closer look

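RPS15 was at least 1.2-fold above the denominator in the first comparison and at least 1.2-fold below it in the second, with log2 fold changes of 0.40 and -0.51. The first minus the second was 0.90. With 1 library behind each level, this difference was not tested.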

How the results depend on the processing

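Changes of the added value, the median of all genes subtracted, a floor of 10 on all levels, the mean, and changes of membership kept every median and count of the members within 1.5 times of its value, a limit used because there is no replicate spread. The exceptions came from scaling and from the fold. With levels divided by their sum, the median was 0.141 in the first comparison and 0.056 for the difference. At least 1.2-fold higher were 11 and 7 members, and 4.73% and 16.7% of all rows. That sum includes the members' own levels. With division by the upper quartile, 19 members and 7.79% of all rows were at least 1.2-fold higher in the first comparison. Subtracting the median of all genes left 8.41% of all rows at least 1.2-fold higher and 10.7% lower in the first comparison, against 11% and 8.51%. At a fold of 1.1 the counts were 72, 32 and 40 (first, second, difference), and at 1.5 they were 1, 0 and 1. Shares of all rows were not counted at these folds, so these counts cannot be set against the whole table. No median changed sign. Alternatives chosen after the data were seen included adding pseudogene levels to the parent gene and leaving out RPL21, RPL13A and RPS15. Without RPL21, RPL13A and RPS15 the medians were 0.25, 0.12 and 0.14. Levels without counts leave the precision of every value unknown.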

Other observations

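The 3' UTRs of ribosomal protein mRNAs are short, with a median of 87 bases over the 76 members against 1167 over 10510 rows. The sequences GTGACTT and TGACTTA were picked from the second comparison by an earlier description of these data. They were present in the 3' UTR of 7 members (9.21%) and in 20.6% of the 10510 rows with a 3' UTR. The 7 were RPL13, RPL15, RPL22, RPL27A, RPL28, RPL37 and RPL37A, with second fold changes from -0.07 (RPL13) to 0.23 (RPL28). Their chosen transcripts were long, from 2078 bases (RPL22) to 7686 (RPL37), against a median of 1011 over the members. The hits thus depend on the transcript chosen, and whether the mRNAs in these cells carry the sequences was not tested. CAATCTA and AATCTAA, picked from the first comparison in the same way, were present in 2 members (2.63%), against 14.2% of the 10510 rows. These members were RPL14 and RPL32, at 0.30 and 0.34 in the first comparison. Their chosen transcripts were also long, at 7072 and 2117 bases. The 3' UTRs of RPS15 and RPL21 held none of the 4 sequences on the sense strand.

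Of the smaller pseudogene rows, RPSAP58 had levels of 14.6, 17.98 and 16.1 and fold changes of 0.28 and 0.13, against 0.23 and 0.14 for RPSA. RPL23AP7 stood at 0.34 and -0.09, against 0.22 and 0.00056 for RPL23A.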
